A study of Rattus norvegicus with 16 samples.

Results

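The genes described here encode proteins of the mitochondrial ribosome. Their mRNA was measured in the tibialis anterior, a fast muscle of the lower hind limb, of Wistar-Imamichi rats. They were taken by name and type: every protein-coding row of the deposited table whose symbol begins with Mrpl or Mrps followed by a digit, 70 of 31141 rows. Of these, 42 carry a large subunit name (Mrpl) and 28 a small subunit name (Mrps). They stand for 69 symbols because Mrpl42 has 1 row on chromosome 7 and another on chromosome 13. No protein-coding row carries the names Mrpl9, Mrpl11, Mrpl24, Mrpl33, Mrpl34, Mrpl50, Mrpl53 or Mrps6, so the counts here leave out part of the ribosome. The 16 libraries formed 3 groups. The group WT_ND held 4 libraries of wild-type rats on a normal diet (ND), numbered 1, 3, 4 and 9. The group DMD_ND held 6 libraries of Dmd-mutant rats on the same diet, and DMD_KD held 6 libraries of Dmd-mutant rats fed MCTKD. Feeding ran from weaning until the rats were 9 months old, and all groups shared the Wistar-Imamichi background. MCTKD is not spelled out in the labels and is commonly read as a ketogenic diet rich in medium-chain triglycerides. The kind of Dmd mutation and the sex of the rats are not given in the labels. Wild-type rats on MCTKD are not analysed here, so the diet was compared in mutant muscle alone.

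Mitochondria keep a ribosome of their own in the matrix, which translates the few mRNAs of the mitochondrial genome into core subunits of the respiratory chain and of ATP synthase. Its rRNAs come from mitochondrial DNA, whereas all of its proteins are made from nuclear genes in the cytosol and imported. Some of these proteins have counterparts in the bacterial ribosome, and others occur only in mitochondria. Skeletal muscle fibres are rich in mitochondria, and Dmd encodes dystrophin, which ties the fibre's cytoskeleton to its surroundings.

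Dmd itself was measured at 7.32 ± 3.32 FPKM (SD over the 4 libraries) in WT_ND, at 1.76 ± 0.209 (6 libraries) in DMD_ND and at 1.36 ± 0.545 (6 libraries) in DMD_KD, and its log2 difference between DMD_ND and WT_ND was -1.51 (SE 0.21, limma adjusted p = 7.73e-06). FPKM, the fragments per kilobase of gene scaled to library size, is a level per gene length. All 11 measured markers of the muscle fibre were present, among them the fast myosin Myh4 at 2270 ± 505 FPKM in DMD_ND. The libraries held 17125084 to 28116085 assigned reads, of which 43043 to 74344 fell on the 70 genes. Library 3 of DMD_KD stood apart from its group. The library size by which its FPKM were divided was 0.762 of its assigned reads, against 1.07 to 1.25 in the other DMD_KD libraries. Libraries 1 and 4 of WT_ND had 0.569 and 0.595, against 0.768 and 0.813 for libraries 3 and 9. Counts and medians of the ribosomal genes, and the named genes that change most, are also given without these 3 libraries. This setting was chosen after seeing the data and leaves WT_ND 3 and 9 as the only wild-type libraries. The values do not say which pair of WT_ND libraries is the unusual one.

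Of the 70 genes, 68 reached 1 FPKM in at least 4 libraries and were tested. The lowest library value behind a tested gene was 159 reads and the highest 3662 reads. Mrps17, a small subunit protein with a bacterial counterpart, was not tested: its mean was 0.235 ± 0.157 FPKM (SD, n = 4) in WT_ND and 0.129 ± 0.0557 (n = 6) in DMD_ND. On its strand the table lists an unnamed protein-coding gene over all 3008 bases of Mrps17, itself at 0.488 ± 0.349 FPKM in WT_ND, so reads there may have gone uncounted or to either row. The Mrpl42 row on chromosome 13 was also untested, at 0.0855 ± 0.171 FPKM in WT_ND, while the row on chromosome 7 held 40.8 ± 13.5 FPKM. Levels per length in WT_ND ran from 7.08 ± 0.795 FPKM for Mrpl47, a protein at the tunnel exit, to 152 ± 46.9 for Mrpl54. Mrpl12, which binds translation factors as the stalk of the large subunit, followed at 128 ± 41.2 FPKM, then Mrpl17 at 102 ± 21.4 and Mrpl27 at 101 ± 33.8. The SDs of these 4 highest levels overlap. All 5761 bases of Mrpl27 lie within Lrrc59 on the same strand. In total 27 of the 70 rows overlap another listed gene, so some of their reads could belong to either.

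In mutant muscle on the normal diet, most mRNAs of mitochondrial ribosomal proteins were lower than in wild type in FPKM, whereas in TPM, a scaling explained below, more of them were higher than lower. The difference DMD_ND minus WT_ND was below 0 for all 68 tested genes on the log2(FPKM + 1) scale, with a median of -0.76 against -0.04 for all 12119 genes tested. Of the 68, 61 fell, none rose and 7 did not pass the test, where 34.3% of all tested genes fell and 31.5% rose (limma, adjusted p under 0.05 over all tested genes). In 58 of the 68, every DMD_ND library lay below every WT_ND library, a position that 28.3% of all tested genes held. The difference was at least 2-fold in 17 genes, with the share of all tested genes in brackets (10.1%). Leaving out a single wild-type library gave 11 without WT_ND 1 (9.33%) and 8 without WT_ND 4 (9.64%). It gave 22 without WT_ND 3 (10.8%) and 24 without WT_ND 9 (11.1%). Without the 3 libraries that stand apart, with WT_ND 3 and 9 alone as wild type, 2 genes remained, Mrpl16 and Mrps18b (8.8%). Without the 3 libraries 57 of the 68 fell and 1, Mrpl45, rose, where 34.5% of all tested genes fell and 32.8% rose, and the median was -0.52. Of the 61 calls 56 remained, and those of Mrps21, Mrpl48, Mrpl27, Mrps7 and Mrpl36 were lost. The call of Mrpl27 was also lost without WT_ND 1 alone (limma adjusted p = 0.116) and without WT_ND 4 alone (0.108).

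The direction of the difference depended on the scaling between libraries, and in WT_ND the 70 genes summed to 2591 ± 602 FPKM (SD, n = 4) but to 3161 ± 225 TPM. TPM, the same values rescaled to an equal total in every library, leaves no room for a change of the total. The deposited FPKM let that total vary, but the library sizes behind them matched a median-of-ratios factor. Such a factor keeps the typical gene near equal between libraries, so neither scale shows absolute amounts. In TPM the sum was higher in DMD_ND, 3637 ± 117 (n = 6), than in WT_ND, whereas in FPKM it was lower, 1448 ± 49.7. In TPM over nuclear protein-coding genes alone the sum was lower in DMD_ND, 5124 ± 215, than in WT_ND, 5687 ± 206. Rescaling to TPM moved the median tested gene up by 0.86 (log2), to 0.83, and the median of the 68 genes to 0.20. Under TPM 6 of the 68 fell and 28 rose, while 5.94% of all tested genes fell and 70.7% rose. With TPM counted over nuclear protein-coding genes alone, 25 fell and 6 rose, while 11.7% of all tested genes fell and 52.7% rose, and the median of the 68 was -0.14 against 0.55 for all tested genes. Set against the median tested gene, the median of the 68 genes stood at -0.72 in FPKM and at -0.63 in TPM. Rescaling to TPM multiplies all genes of a library by the same factor, so this likeness is nearly built in and adds no evidence. Of all reads assigned to genes, the 70 genes took a share of 0.258 ± 0.019% in WT_ND, 0.267 ± 0.0119% in DMD_ND and 0.263 ± 0.0138% in DMD_KD, shares that overlap.

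**Figure D1:**
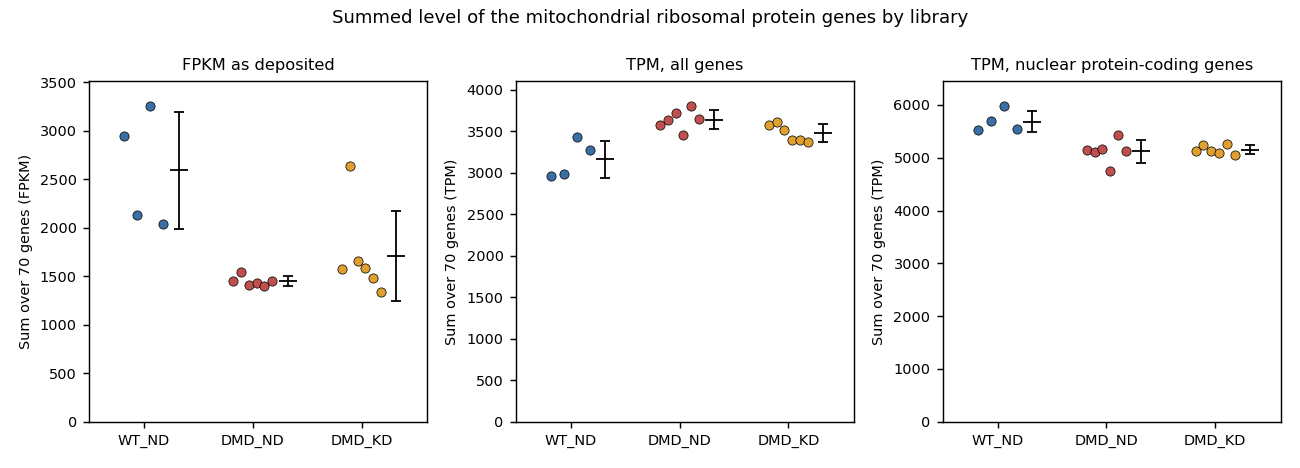
Summed level of the 70 mitochondrial ribosomal protein genes in each library (vertical axes, FPKM as deposited, TPM over all genes, and TPM over nuclear protein-coding genes), by group; dots are libraries and the bar beside them is the mean with its SD. In FPKM the DMD_ND libraries (1401 to 1540) lie below all WT_ND libraries (2038 to 3252), whereas in TPM over all genes they lie above (3459 to 3799 against 2962 to 3425). In TPM over nuclear protein-coding genes they lie below again (4753 to 5424 against 5526 to 5976).

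With all libraries, the largest falls in FPKM were in Mrpl38, Mrps18b, Mrpl16, Mrpl4 and Mrps5, with Mrps36 next. The order rests on the libraries that stand apart: without them Mrpl16 (-1.21) and Mrps18b (-1.03) led, followed by Mrpl38 (-0.99), Mrps22 (-0.96), Mrps36 (-0.96), Mrps5 (-0.95), Mrpl19 (-0.95) and Mrpl4 (-0.94), all called lower. Mrpl38 (chromosome 10, 101365353-101372171, minus strand, mRatBN7.2), a mitochondria-specific protein of the central protuberance of the large subunit, was at 55.4, 28.7, 54.8 and 27.0 FPKM in the WT_ND libraries 1, 3, 4 and 9. In DMD_ND it ran from 12.2 over a median of 13.2 to 15.7 FPKM, and in DMD_KD from 13.7 over 16.9 to 34.2 FPKM. Its log2 difference between DMD_ND and WT_ND was -1.47 (SE 0.23, 2.76-fold, adjusted p = 3.23e-05). Every DMD_ND library was below every WT_ND library, while the highest DMD_KD library, number 3, lay inside the WT_ND range.

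Mrps18b (chromosome 20, 2838030-2844260, plus strand) is a small subunit protein found only in mitochondria, 1 of 3 Mrps18 paralogs. It was at 104, 64.0, 118 and 64.9 FPKM in WT_ND 1, 3, 4 and 9, and at 29.4, 31.0 and 32.5 FPKM in the lowest, median and highest DMD_ND library. The DMD_KD libraries ran from 31.8 over 35.6 to 58.7 FPKM, all below WT_ND. Its log2 difference DMD_ND minus WT_ND was -1.42 (SE 0.18, adjusted p = 3.49e-06). The paralog Mrps18a, which sits in the large subunit despite its name, fell by 1.10 (SE 0.23), and Mrps18c, the small subunit copy, fell by 0.48 (SE 0.11) in FPKM. Under TPM the values were -0.43 for Mrps18b, -0.13 for Mrps18a and 0.44 for Mrps18c, so the sign of Mrps18c turned. The order of the 3 paralogs was the same on both scales, which rescaling whole libraries nearly fixes in advance.

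Mrpl16, a large subunit protein with a bacterial counterpart, was at 23.0, 21.8, 29.8 and 20.1 FPKM in WT_ND 1, 3, 4 and 9. It ran from 6.89 over 8.54 to 10.2 FPKM in DMD_ND and from 8.46 over 10.7 to 13.6 FPKM in DMD_KD, both below all WT_ND libraries. Its log2 difference between DMD_ND and WT_ND was -1.37 (SE 0.14, adjusted p = 2.13e-07). The gene overlaps Stx3 on the opposite strand by 1553 bases, and the sources used here do not say whether reads were counted by strand.

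Mrpl4, a large subunit protein with a bacterial counterpart, was at 81.9, 50.8, 81.9 and 46.7 FPKM in WT_ND 1, 3, 4 and 9 and from 19.3 over 26.3 to 27.2 FPKM in DMD_ND, below all wild-type libraries. It fell by 1.31 (SE 0.22). In DMD_KD it reached 61.4 FPKM in library 3 and at most 32.7 in the others. Mrps5, a small subunit protein with a bacterial counterpart, fell by 1.21 (SE 0.15), from 26.1 FPKM or more in every WT_ND library to 14.2 or less in every DMD_ND library. Mrps28, also of the small subunit, fell by 1.14 (SE 0.19). Mrpl15, a large subunit protein, fell by 1.14 (SE 0.18). Mrps36 fell by 1.18 (SE 0.16), from 82.0, 68.1, 87.6 and 56.3 FPKM in WT_ND 1, 3, 4 and 9 to between 28.6 and 38.3 FPKM in DMD_ND. It carries a ribosomal name but is now known as a subunit of the oxoglutarate dehydrogenase complex of the citric acid cycle. Mrpl38, Mrps18b, Mrpl16, Mrpl4, Mrps5 and Mrps36 were the 6 of the 68 that were called lower under FPKM and under both forms of TPM. Mrps28 and Mrpl15 were lower under TPM too (-0.16 and -0.15) but not called.

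At the other end, Mrpl45, Mrpl20, Mrps26 and Mrpl49 had the differences nearest to 0. Mrpl45 (chromosome 10, 82308427-82320474, plus strand), which ties the tunnel exit to the inner membrane, was at 48.3, 38.0, 55.9 and 32.7 FPKM in WT_ND 1, 3, 4 and 9. In DMD_ND it ran from 41.1 over 42.3 to 46.0 FPKM, inside the wild-type range, with a log2 difference of -0.00 (SE 0.17). Without the 3 libraries that stand apart it was 0.27 and called higher (limma adjusted p = 0.0123). Mrpl20, a large subunit protein with a bacterial counterpart, differed by -0.07 (SE 0.19), Mrps26, of the small subunit, by -0.12 (SE 0.14) and Mrpl49, of the large subunit, by -0.17 (SE 0.11). Under TPM the values of Mrpl45 (1.002), Mrpl20 (0.94), Mrps26 (0.87) and Mrpl49 (0.82) were called higher and lay close to the median tested gene. Mrpl17, Mrpl23 and Mrps33 were the other 3 of the 68 that were not called in FPKM, at -0.28, -0.39 and -0.20.

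**Figure D2:**
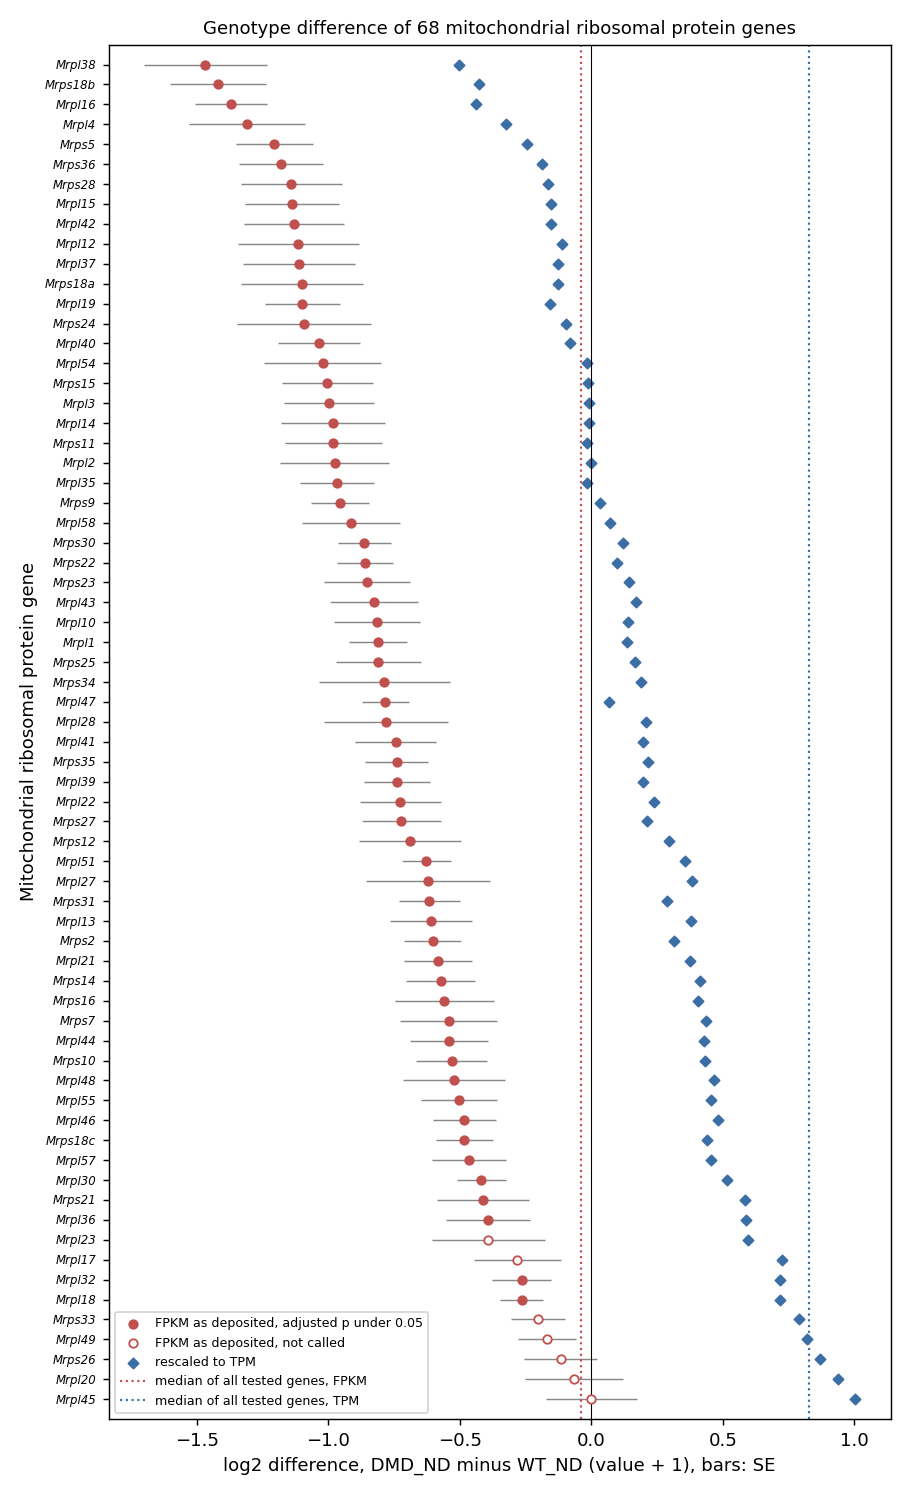
Log2 difference between DMD_ND and WT_ND (horizontal axis) for each of the 68 tested genes (vertical axis, ordered), on FPKM with its SE (red, open where the adjusted p was not under 0.05) and on TPM (blue diamonds); dotted lines mark the median of all 12119 tested genes. Red points run from -1.47 for Mrpl38 to -0.00 for Mrpl45. The blue points keep nearly that order, which rescaling whole libraries nearly fixes in advance. They lie about 1 log2 unit higher, so that those of 46 genes are above 0.

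**Figure D3:**
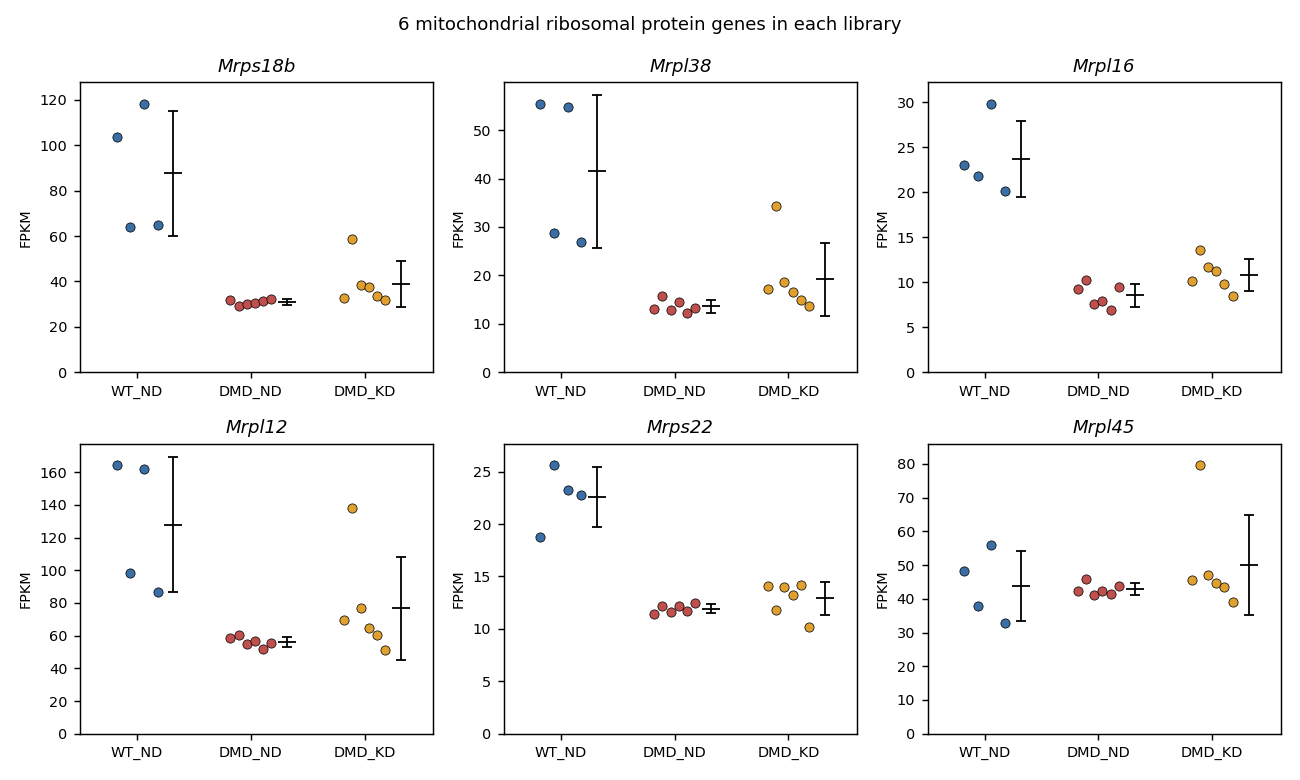
FPKM (vertical axes) of 6 genes in each library, by group, with the mean and SD beside the dots. Mrps18b, Mrpl38, Mrpl16, Mrpl12 and Mrps22 lie lower in all DMD_ND libraries than in any WT_ND library in FPKM, whereas Mrpl45 does not; library 3 of DMD_KD is the highest of its group for Mrpl38, Mrps18b, Mrpl12, Mrpl16 and Mrpl45 but not for Mrps22.

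Falls in FPKM were counted by place in the ribosome, beside the 34.3% of all tested genes that fell. The lists of these places name 30, 21, 16 and 10 proteins in the order below, and not all of them have a row. Of 25 tested large subunit proteins with a bacterial counterpart, 22 fell, with a median difference of -0.78. Of 18 large subunit proteins found only in mitochondria, 16 fell, with a median of -0.78. All 14 tested small subunit proteins with a bacterial counterpart fell, with a median of -0.65, and 8 of the 10 mitochondria-specific ones, with a median of -0.76. Under TPM these 4 medians turned positive, between 0.18 and 0.30, below the median tested gene at 0.83. Without the 3 libraries that stand apart the counts were 20, 15, 12 and 9 in the same order, with Mrpl45 higher among the large subunit proteins found only in mitochondria, and the medians were -0.46, -0.62, -0.41 and -0.54.

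The stalk that recruits translation factors showed a median of -1.02 in FPKM and -0.02 in TPM. Mrpl12 was at 164, 98.5, 162 and 86.4 FPKM in WT_ND 1, 3, 4 and 9, from 51.6 over 56.0 to 60.3 FPKM in DMD_ND and from 51.0 over 67.0 to 138 FPKM in DMD_KD, where library 3 alone reached the wild-type range. The 3 tested members of the stalk all fell in FPKM: Mrpl12 by 1.11 (SE 0.23), Mrpl54, a mitochondria-specific protein beside it, by 1.02 (SE 0.22) and Mrpl10, its anchor, by 0.82 (SE 0.16). Of the 3, Mrpl10 turned under TPM, to 0.14. Without the 3 libraries that stand apart all 3 stalk genes still fell, with a median of -0.66. Of 8 proteins lining the exit of the peptide tunnel, 5 fell in FPKM, with a median of -0.47 (0.51 in TPM), and Mrpl45, Mrpl17 and Mrpl23 among them did not pass the test. All 7 tested proteins of the central protuberance fell in FPKM, with a median of -0.52 (0.46 in TPM), from -1.47 for Mrpl38 to -0.26 for Mrpl18. Without the libraries that stand apart 5 of the 7 fell, with a median of -0.27, and of the 8 at the tunnel exit 5 fell and Mrpl45 rose (median -0.36). Whether the places differ from each other was not tested.

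Several of the proteins are known for disease or for special tasks. Mrps22, a small subunit protein whose human gene is mutated in a mitochondrial disease with cardiomyopathy, was at 18.7, 25.6, 23.3 and 22.8 FPKM in WT_ND 1, 3, 4 and 9 and from 11.4 over 11.95 to 12.5 FPKM in DMD_ND. It fell by 0.86 (SE 0.11, adjusted p = 1.89e-06) in FPKM and differed by 0.10 under TPM. Mrpl44, whose human gene is also mutated in cardiomyopathy, fell by 0.54 (SE 0.15), and Mrpl41, which is also known as a binding partner of p53, by 0.74 (SE 0.16). Mrps30, known as the programmed cell death protein PDCD9 and placed in the large subunit, fell by 0.86 (SE 0.10). Mrpl58, a hydrolase that frees peptides from stalled ribosomes, fell by 0.91 (SE 0.19), and Mrps12, the decoding site protein in which streptomycin resistance arises in bacteria, by 0.69 (SE 0.19). Under TPM all of these were positive, from 0.07 for Mrpl58 to 0.43 for Mrpl44. The low-level genes Mrpl47, Mrps31 and Mrps2 fell by 0.78, 0.62 and 0.60 in FPKM, and were at 0.07, 0.29 and 0.31 under TPM.

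Ratios taken inside a library do not depend on the scaling between libraries. The summed FPKM of the 70 genes came to 8.80 ± 0.452% (SD, n = 4) of that of the nuclear genes of the respiratory chain and ATP synthase in WT_ND. It came to 11.8 ± 0.652% (n = 6) in DMD_ND and to 10.8 ± 0.596% (n = 6) under MCTKD. No mutant library (10.1% or more) fell into the wild-type range, which ended at 9.15%. Relative to the 13 proteins encoded by mitochondrial DNA, the products of this ribosome, the sum was 0.756 ± 0.103% in WT_ND, 1.38 ± 0.0592% in DMD_ND and 1.16 ± 0.0971% in DMD_KD. Here too the groups of mutant rats (1.03% or more) lay above WT_ND (0.849% or less). Relative to the proteins of the cytosolic ribosome it was lower in mutant muscle, 10.3 ± 1.19% in DMD_ND and 12.3 ± 1.05% in DMD_KD against 22.3 ± 1.19% in WT_ND. The ratio of small to large subunit mRNA was 0.486 ± 0.013 in WT_ND, 0.461 ± 0.00371 in DMD_ND and 0.459 ± 0.0174 in DMD_KD. The shift was small, but every DMD_ND library (0.466 or less) lay below every WT_ND library (0.475 or more). The DMD_KD libraries, from 0.428 to 0.478, overlapped WT_ND.

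**Figure D4:**
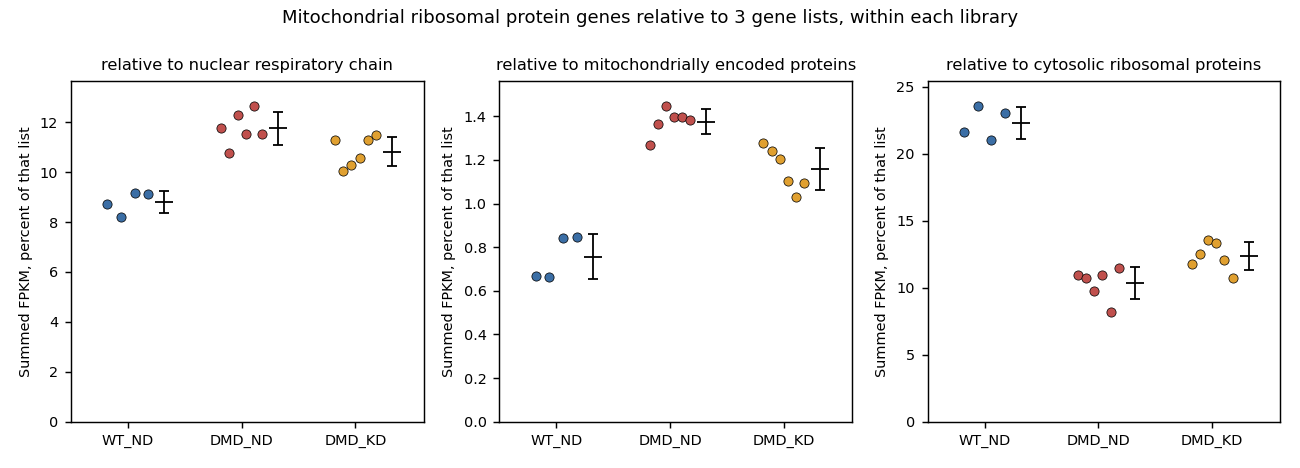
Summed FPKM of the 70 genes as a percentage of 3 gene lists in the same library (vertical axes), by group, with mean and SD beside the dots. Mutant libraries lie above WT_ND relative to the respiratory chain (8.80% in WT_ND, 11.8% in DMD_ND) and to the mitochondrially encoded proteins, and below it relative to the cytosolic ribosome (22.3% and 10.3%).

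Other genes that make and serve the mitochondrial ribosome were counted from lists chosen with results of these data known. Beside these counts, 34.3% of all tested genes fell and 31.5% rose in FPKM. Of 5 mitoribosomal proteins with other names, 3 fell and 1 rose in FPKM, with a median of -0.51: Gadd45gip1 (-0.78) and Ptcd3 (-0.66) fell, and Aurkaip1 rose by 0.48 (SE 0.15). Under TPM their median was 0.50. Of 21 tested factors for assembly and rRNA modification, 18 fell and 1 rose, with a median of -0.59 in FPKM and 0.28 in TPM. Among them Fastkd2, which stabilises the 16S rRNA, fell by 1.12 (SE 0.11), Eral1, the chaperone of the 12S rRNA, by 1.15 (SE 0.16) and Mrm1, a methyltransferase of the 16S rRNA, by 0.85 (SE 0.12). All 3 kept a negative sign under TPM.

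Of 14 translation factors, 12 fell and none rose, with a median of -0.75 in FPKM and 0.12 in TPM. The elongation factor Gfm1 fell by 1.04, Gfm2, which acts in ribosome recycling, by 1.10, and Taco1, the activator of COX1 translation, by 1.39 (SE 0.13), all negative under TPM. Of 17 genes for charging mitochondrial tRNAs, 14 fell and none rose (median -0.74, 0.09 in TPM), led by Aars2 (-1.30), Gatb (-1.13) and Qrsl1 (-1.42). The last 2 are subunits of the amidotransferase that makes glutaminyl-tRNA. Aars2 overlaps all 12841 bases of Mrpl14 on the same strand, so some reads could belong to either. Of 16 genes for transcription of mitochondrial DNA and RNA stability, 11 fell and none rose (median -0.74, 0.21 in TPM), with Lrpprc, which stabilises mitochondrial mRNA, at -1.57, the DNA polymerase Polg at -1.22 and the RNA polymerase Polrmt at -1.05.

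All 13 mitochondrially encoded proteins fell, with a median of -1.66 in FPKM and -0.65 in TPM, a larger difference than the median of the ribosomal proteins on both scales. Mt-nd2, Mt-nd4l and Mt-nd5, subunits of complex I, were at -1.76, -1.77 and -1.91. Of 68 tested nuclear genes of the respiratory chain and ATP synthase, 65 fell and none rose in FPKM (median -1.11), while under TPM 25 fell and 8 rose (median -0.10). Sdha, the catalytic subunit of complex II, fell by 1.77 (SE 0.12), with Ndufs1 at -1.64 and Uqcrc2 at -1.45. Of 65 tested rows for cytosolic ribosomal proteins, none fell and 25 rose in FPKM (median 0.39), 56 without the 3 libraries that stand apart, and 64 rose in TPM (median 1.38). Of all tested genes, 34.3% fell and 31.5% rose in FPKM, and 5.94% fell and 70.7% rose in TPM. Without the 3 libraries 32.8% of all tested genes rose in FPKM. Many cytosolic ribosomal genes have near-identical copies between which the counting could split reads.

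Of 10 known regulators of mitochondrial genes, 4 fell and 3 rose in FPKM, where 34.3% of all tested genes fell and 31.5% rose. Their median was -0.04, like that of all tested genes (-0.04). Ppargc1a, the coactivator of mitochondrial biogenesis, was at 6.79 ± 2.73 FPKM (SD, n = 4) in WT_ND and 1.23 ± 0.485 (n = 6) in DMD_ND, a log2 difference of -1.77 (SE 0.21, adjusted p = 1.14e-06). Esrra, the receptor that acts with it, was at -1.2 (SE 0.18, called lower), and both stayed negative under TPM (-1.203 and -0.46). Myc, a growth regulator, rose by 2.73 (SE 0.29). For 3 transcription factors named for the motifs below, after their values were seen, the FPKM differences were 0.06 for Nrf1, 0.09 for Gabpa and -0.14 for Yy1, none of them called.

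Markers of other cells moved along with the genotype in FPKM, where 34.3% of all tested genes fell and 31.5% rose. All 14 macrophage markers rose, with a summed level of 28.5 to 71.3 FPKM in WT_ND, 462 to 899 in DMD_ND and 419.8 to 680.0 in DMD_KD. All 10 tested fibroblast markers rose (summed level 112 to 261, 1619 to 2549 and 1292 to 1871 FPKM in the same order), and 1 of the 11 listed, Ly6al, was at 0 in every library. Of 9 markers of satellite cells and regenerating fibres 6 rose and 1 fell (49.1 to 67.2, 209 to 355 and 161 to 254 FPKM). All 5 adipocyte markers rose, and of 6 endothelial markers 2 fell and none rose. Of 11 fibre markers 9 fell in FPKM, with a median of -1.24 (-0.23 in TPM). Their part in the difference of the mitochondrial ribosomal proteins was not tested, and in whole muscle fewer fibres and less of this mRNA per fibre cannot be told apart.

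Promoters were drawn from RefSeq (GRCr8), which held a window of 300 bases, 250 before and 50 after the start, for 53 of the 70 rows. The rows without one were Mrpl13, Mrpl15, Mrpl16, Mrpl19, Mrpl21, Mrpl35, Mrpl38, both Mrpl42 rows, Mrpl43, Mrps12, Mrps22, Mrps24, Mrps28, Mrps34, Mrps35 and Mrps36. Cores of 3 factors known at genes for mitochondrial proteins, and the GC box, were searched on both strands: GCATGCGC for NRF1, CCGGAAG for the ETS family, AAGATGGC for YY1 and GGGCGG for the GC box. None of these motifs contains another. Only exact matches were counted, so sites with any other letter are missing from the shares below. The ETS core was in 17 of 53 windows (32.1%, against 8.75% of all 33469 rat windows), the YY1 core in 12 (22.6% against 3.17%), the NRF1 core in 5 (9.4% against 2.47%) and the GC box in 26 (49.1% against 33.06%). At least 1 of the NRF1, ETS and YY1 cores was in 26 windows (49.1% against 13.28%). These shares are descriptions, and base composition was not matched. Among the 26 windows of the genes with the larger falls in FPKM, 6 held the ETS core, 5 the YY1 core and 2 the NRF1 core, against 11, 7 and 3 among the 26 with the smaller falls. The GC box was in 13 and 12. The tested rows without a window all fell in FPKM, from -1.47 for Mrpl38 to -0.58 for Mrpl21. They include Mrpl16, Mrps36, Mrps28 and Mrpl15, so this split leaves out several of the largest falls.

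Windows are shown for 4 genes to set a strong fall beside a difference near 0, with capitals marking every motif match on either strand. Mrps18b (chr20:2842756-2843055, plus strand) and Mrpl4 (chr8:27815521-27815820, plus strand) fell by 1.42 and 1.31 in FPKM. Mrpl45 (chr10:82804789-82805088, plus strand) differed by -0.00. Mrpl46 (chr1:142116981-142117280, minus strand) shares its promoter with Mrps11, which starts 234 bases away in the other direction, so that 267 bases are common to both windows.
Mrps18b: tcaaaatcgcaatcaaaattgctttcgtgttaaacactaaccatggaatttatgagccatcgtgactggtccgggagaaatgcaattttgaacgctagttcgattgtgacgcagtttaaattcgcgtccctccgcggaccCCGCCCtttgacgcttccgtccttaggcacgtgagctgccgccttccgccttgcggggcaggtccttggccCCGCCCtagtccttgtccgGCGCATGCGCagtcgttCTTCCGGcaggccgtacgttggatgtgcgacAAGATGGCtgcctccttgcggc
Mrpl4: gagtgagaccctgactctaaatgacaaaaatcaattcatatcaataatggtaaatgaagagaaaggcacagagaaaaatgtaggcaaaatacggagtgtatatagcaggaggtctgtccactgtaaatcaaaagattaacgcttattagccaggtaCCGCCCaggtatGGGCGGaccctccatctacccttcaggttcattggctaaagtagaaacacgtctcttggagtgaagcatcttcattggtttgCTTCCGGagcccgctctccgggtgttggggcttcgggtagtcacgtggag
Mrpl45: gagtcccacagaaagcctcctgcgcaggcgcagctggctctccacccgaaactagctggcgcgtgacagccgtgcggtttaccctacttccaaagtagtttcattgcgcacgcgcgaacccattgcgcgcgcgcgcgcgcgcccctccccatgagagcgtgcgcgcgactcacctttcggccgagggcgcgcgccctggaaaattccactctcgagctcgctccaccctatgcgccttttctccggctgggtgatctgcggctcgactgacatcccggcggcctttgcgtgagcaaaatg
Mrpl46: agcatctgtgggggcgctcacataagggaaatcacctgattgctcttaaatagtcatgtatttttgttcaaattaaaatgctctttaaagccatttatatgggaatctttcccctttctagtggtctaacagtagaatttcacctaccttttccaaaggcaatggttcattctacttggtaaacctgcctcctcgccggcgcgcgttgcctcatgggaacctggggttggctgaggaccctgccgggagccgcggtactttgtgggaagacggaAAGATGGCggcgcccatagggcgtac
In Mrps18b the 10 capitals in 1 run are the NRF1 core read on both strands, followed by the ETS and YY1 cores, with 2 GC boxes upstream. Mrpl4 holds 2 GC boxes and 1 ETS core, and Mrpl46 a single YY1 core near its start. None of the 4 motifs was in the Mrpl45 window, as in 16 of the 53 windows, which says nothing of the factors there. Only exact matches were marked, and the Mrpl45 window holds gcacgcgc, which is 1 letter off the NRF1 core.

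Mrps11 and Mrpl46, neighbours in RefSeq, both fell in FPKM. Mrps11, a small subunit protein with a bacterial counterpart, fell from 27.3 ± 6.48 FPKM (SD, n = 4) to 13.1 ± 0.97 (n = 6), by 0.98 (SE 0.19) on the log2 scale. Mrpl46, a large subunit protein, fell from 18.1 ± 2.01 to 12.6 ± 0.581 FPKM, by 0.48 (SE 0.12), and under TPM the values were -0.02 and 0.48. The table lists all 9028 bases of Mrpl46 within Mrps11 on the opposite strand, so some reads could belong to either. The starts of these 2 rows lie far apart in that annotation, unlike in RefSeq, and the difference between the 2 falls was not tested.

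In the deposited annotation, 24 of the 70 genes have a protein-coding neighbour on the other strand that starts within 1000 bases. Several of these neighbours overlap the ribosomal gene, so some reads could belong to either. Of the 21 tested neighbours 13 fell, 3 rose and 5 were not called in FPKM, where 34.3% of all tested genes fell and 31.5% rose. Their median was -0.40, against -0.69 for the ribosomal genes of these pairs. Under TPM most of the tested neighbours were positive. Whether partners of a pair change together was not tested. The following were picked, after their values were seen, because both partners act in mitochondria. Mrpl43 (-0.83) starts 49 bases from Twnk (-1.11), the helicase of mitochondrial DNA. Mrps12 (-0.69) starts 206 bases from Sars2 (-1.04), the mitochondrial seryl-tRNA synthetase, and Mrpl47 (-0.78) 160 bases from Ndufb5 (-1.30), a subunit of complex I. Mrpl35 (-0.97) starts 428 bases from Immt (-1.19), which shapes the cristae. Under TPM the 4 ribosomal partners were at 0.17, 0.29, 0.07 and -0.01 and the neighbours at -0.24, -0.19, -0.30 and -0.19. In Mrpl49 (-0.17), which starts 140 bases from Fau, the gene of a cytosolic ribosomal protein, both stayed uncalled in FPKM, with Fau at 0.28 (SE 0.21). Mrps34 (-0.79) starts 58 bases from Eme2, a nuclease subunit, which rose by 0.78.

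None of the 68 genes was called between mutant rats on MCTKD and on the normal diet. DMD_KD minus DMD_ND was above 0 in 59 of 68 genes in FPKM, with a median of 0.17 against -0.01 for all tested genes. In limma 0 of the 68 rose and 0 fell, where 0.00825% of all tested genes rose and 0.0% fell. The smallest adjusted p among them was 0.285. At an unadjusted p under 0.05 there were 3 of 68, all higher, against 14.3% of all tested genes, and a rank-sum test run exactly for each gene made 0 calls. No gene of the 68 had every DMD_KD library above every DMD_ND library, a position held by 0.842% of all tested genes. Without DMD_KD 3 the median was 0.09, with 55 genes above 0, and under TPM over all libraries it turned to -0.08, where the median tested gene was at -0.24, and 51 of the 68 differences were below 0. Under nuclear TPM it was -0.01, with 38 of the 68 below 0.

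The 3 genes with the smallest diet p were Mrpl16, Mrps28 and Mrps5. Mrpl16 differed by 0.31 (SE 0.12, adjusted p = 0.285), Mrps28 by 0.41 (SE 0.17, adjusted p = 0.302) and Mrps5 by 0.31 (SE 0.13, adjusted p = 0.305). Without DMD_KD 3 they were at 0.25, 0.25 and 0.21. Mrps28 was at 18.04, 23.6 and 44.2 FPKM in the lowest, median and highest DMD_KD library and at 16.6, 18.04 and 22.8 FPKM in DMD_ND, ranges that overlap. Mrpl22, Mrpl35, Mrps11, Mrpl38, Mrps27, Mrpl4 and Mrps9 came next in order of p, with differences from 0.18 for Mrps9 to 0.41 for Mrpl38. The stalk gene Mrpl12 was at 0.36 (SE 0.21), and Mrpl45 and Mrps22 were at 0.18 (SE 0.16) and 0.10 (SE 0.09) in FPKM, but at -0.09 and -0.16 under TPM. The SE of the diet difference in these genes, 0.09 to 0.21, sets the size of difference that could be detected.

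Of the neighbouring lists none had a called gene under the diet. Median differences in FPKM were 0.40 for the 13 mitochondrially encoded proteins and 0.28 for the nuclear respiratory chain. They were 0.15 for translation factors, 0.12 for assembly factors and -0.08 for cytosolic ribosomal proteins. Without the DMD_KD library that stood apart, the medians were 0.31 for mitochondrially encoded proteins, 0.14 for translation factors and 0.08 for assembly factors. Under TPM over all libraries these 3 lists were at 0.13, -0.10 and -0.08. Fibre markers had a median of 0.39, macrophage markers -0.17 and fibroblast markers -0.34, all in FPKM with all libraries. In DMD_KD the summed level of the nuclear respiratory chain reached 26156 FPKM in the highest library, against a group median of 14499. For fibre markers the highest DMD_KD library was at 148430 FPKM, against a group median of 66598.

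Against wild type, mutant muscle under MCTKD was still lower in FPKM, with a median of -0.61 for the 68 genes and -0.06 for all tested genes. Of the 68, 50 fell and none rose, where 31.1% of all tested genes fell and 27.3% rose. In 20 of 68 every DMD_KD library was below every WT_ND library, against 17.3% of all tested genes. Under TPM 5 fell and 23 rose, where 4.73% of all tested genes fell and 57.2% rose, and the median turned to 0.07. This comparison shares libraries with the other 2, so the values only stand side by side. Without DMD_KD 3, 62 fell and none rose, where 34.1% of all tested genes fell and 29.7% rose, with a median of -0.70. Mrps18b differed by -1.14, Mrpl38 and Mrpl16 by -1.06 each, Mrpl12 by -0.75 and Mrpl45 by 0.18.

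Library 3 of DMD_KD was the highest of its group in 55 of the 68 genes and the lowest in 5. It exceeded the median of the other DMD_KD libraries by a median of 0.62 (log2, range -0.54 to 1.26). In WT_ND, libraries 1 and 4 both lay above 3 and 9 in 56 of 68 genes, by a median of 0.51 (-0.20 to 0.99). Both differences ran in parallel across the 68 genes (Pearson's r = 0.856, Spearman's rho = 0.797, a description over genes of the same libraries). Mrps34, a mitochondria-specific small subunit protein, was at 42.4 and 38.1 FPKM in WT_ND 1 and 4 against 19.7 and 19.7 in 3 and 9, and at 39.2 in DMD_KD 3 against at most 19.6 in the others. Mrps31, of the same subunit, went the other way, with 3.97 FPKM in DMD_KD 3 as the lowest of its group and 8.48 and 8.97 in WT_ND 1 and 4 below 9.72 and 9.89 in 3 and 9. Summed over the 70 genes in TPM, DMD_KD 3 was at 3615 against 3367 to 3579 in the other DMD_KD libraries.

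**Figure D5:**
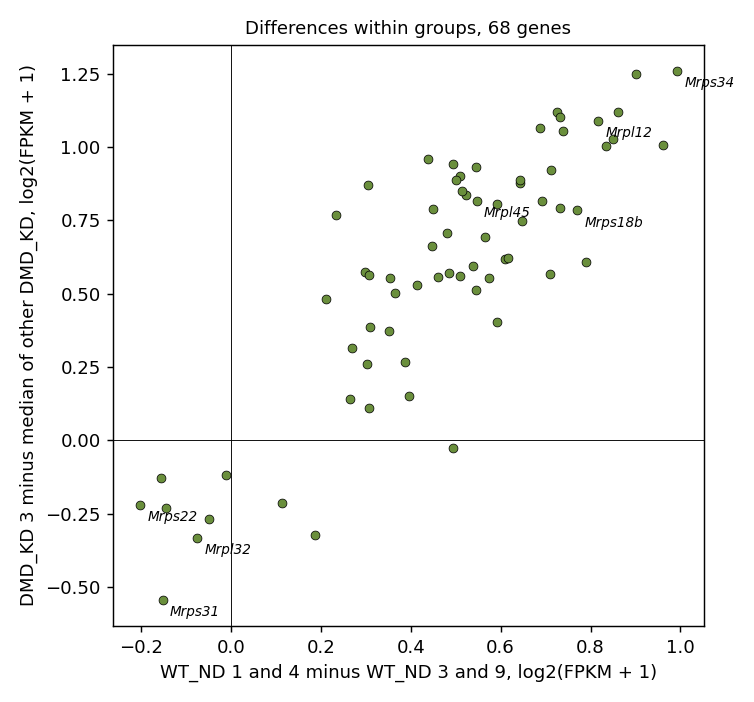
For each of the 68 tested genes, the log2(FPKM + 1) difference of WT_ND libraries 1 and 4 from 3 and 9 (horizontal axis) and of DMD_KD 3 from the median of the other DMD_KD libraries (vertical axis); each dot is a gene. Most genes lie at the upper right, with Mrps34 farthest out (0.99 and 1.26), and Mrps31 lies lowest (-0.54).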

How the data were processed

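RNA of frozen tibialis anterior was poly-A selected, per the labels' protocols, which allow for a directional or a non-directional library without saying which was made. The build mRatBN7.2 and the tools HISAT2 (2.0.5) and featureCounts (1.5.0-p3) are listed per the submitters' processing notes. Not given in the sources used here are the strand setting, the annotation release and the handling of multi-mapped reads. The authors deposited 1 table of FPKM per gene and library, per the file headers. All values (100% within 0.05) were whole multiples of 1 read's worth, and the library size behind them matched a median-of-ratios factor, so the FPKM were already scaled between libraries. TPM were computed here from them.

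Columns were matched to samples by title and samples to groups by genotype and diet labels. The 12119 genes that reached 1 FPKM in 4 or more of the 16 libraries were tested in R 4.3.3 with limma 3.58.1 on log2(FPKM + 1), in 1 model of 3 group means (13 residual degrees of freedom, eBayes with trend and robust options, two-sided, Benjamini-Hochberg over all tested genes, called at an adjusted p under 0.05). Fold changes on this scale understate those of low genes. The 17125084 to 28116085 assigned reads per library, and at least 159 per tested member, set the counting precision. The code was tested on simulated data. The labels do not say that each library is a separate animal, so p-values measure only the spread between these libraries, which may be technical.

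The genes, lists and tests were chosen with earlier results of these data known. Named members were the 8 called with the largest falls and up to 8 with the largest rises, the 4 nearest 0, the 10 with the smallest diet p, the 5 highest and 5 lowest levels, those under 1 FPKM in 13 or more libraries, the stalk, the Mrps18 paralogs and 7 with known roles; per list, up to 3 genes with the smallest genotype p. Promoter windows (RefSeq, GRCr8) were matched by symbol. Other pseudocounts, filters, scalings, spreads, a replicate block, a rank-sum test and left-out libraries were tried, 4 of the settings added after seeing the data. Same-numbered libraries did not deviate together in every pair, so numbers were not taken as pairs.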

Additional observations from a re-analysis of the deposited data

Results flagged for a closer look

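In DMD_KD, library 3 lay farther above the other 5 libraries than the spread among them allows by Dixon's criterion (0.625 for 6 samples) for 23 of the named genes. Its FPKM there were Mrpl38 34.2, Mrps18b 58.7, Mrpl4 61.4, Mrps5 23.7, Mrps36 56.2, Mrps28 44.2, Mrpl15 48.4, Mrpl45 79.6, Mrpl20 85, Mrpl49 25.1, Mrpl22 24.2, Mrpl35 17.6, Mrps11 28.7, Mrps27 14.1, Mrpl27 137, Mrpl12 138, Mrpl17 148, Mrpl54 169, Mrpl10 16.8, Mrps18a 36.6, Mrpl58 45.4, Mrps12 40.7 and Mrpl44 24. Its summed level over the 70 genes, 2631 FPKM, was set apart in the same way, and so was its ratio of library size to assigned reads, 0.762, on the low side. In DMD_ND, library 9 was low for Mrpl4 (19.3 FPKM) and Mrps9 (24.4), library 5 was high for Mrps36 (38.3) and Mrps28 (22.8), and library 11 was high for Mrpl49 (23.1). In WT_ND, library 4 was high for Mrpl44 (26.03 FPKM; criterion 0.829 for 4 samples). Of 123 such sets of libraries 31 were set apart, most of them by DMD_KD 3. Chance gives about 1 in 20 for a single set. These sets are drawn from the same libraries and are not independent, so their number cannot be read against that rate.

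Among rows left out of the comparisons, Mrpl52 is typed as a lncRNA in the deposited table although it bears the name of a large subunit protein, and it averaged 4.49 FPKM over the 16 libraries. Its level was 3.77 ± 1.07 FPKM (SD over libraries) in the 4 WT_ND libraries, 4.81 ± 0.464 in the 6 of DMD_ND and 4.64 ± 1.23 in the 6 of DMD_KD, with a log2 difference between DMD_ND and WT_ND of 0.31 (SE 0.16, limma adjusted p = 0.0898). Mrps21l, a pseudogene row, was at 0 in WT_ND and DMD_KD and at 0.0498 ± 0.0772 FPKM in DMD_ND.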

How the results depend on the processing

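Counts of the 68 genes below are given as lower and higher, after Benjamini-Hochberg over all genes tested with limma unless another test is named. For DMD_ND against WT_ND, TPM gave 6 and 28 (median 0.20), nuclear TPM 25 and 6 (-0.14), nuclear TPM without DMD_KD 3 28 and 10 (-0.14), nuclear TPM without DMD_KD 3, WT_ND 1 and WT_ND 4 30 and 6 (-0.15), and deposited FPKM without those 3 libraries 57 and 1. For DMD_KD against WT_ND the same settings gave 5 and 23 (0.069), 24 and 4 (-0.21), 26 and 8 (-0.15), 25 and 4 (-0.17), and 54 and 1, weights per library gave 1 higher and the rank-sum test 22 lower. For DMD_KD against DMD_ND the median was -0.084 under TPM and -0.014 under nuclear TPM, with no gene called. The settings that leave out chosen libraries were added after seeing the data. With a replicate block, 32 fell between WT_ND and DMD_ND (median -0.61) and 19 between WT_ND and DMD_KD (-0.45). Correlations of same-numbered libraries ran from -0.656 to 0.407, and 2 of 8 libraries correlated best with their own number. Leaving out 1 library at a time gave 54 to 63, 43 to 62 and 0 lower for the 3 comparisons in the order DMD_ND against WT_ND, DMD_KD against WT_ND and DMD_KD against DMD_ND, with medians of -0.83 to -0.64, -0.70 to -0.51 and 0.09 to 0.23, and -1.72 to -1.28 for the Dmd level. Without DMD_KD 3, WT_ND 1 and WT_ND 4 together the first 2 medians were -0.52 and -0.46, and Dmd was at -1.91. The cause of these shifts was not tested.

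Under TPM 46 of the 68 genes turned sign in the genotype comparison and 42 in that of the diet, and under nuclear TPM 26 and 29. Among the genes named by rule, those that turned were as follows, the diet being followed only for the 10 with the smallest diet p. Under TPM Mrpl45 1.002, Mrpl20 0.94, Mrps26 0.87, Mrpl49 0.82, Mrpl22 0.24, Mrps27 0.21, Mrps9 0.034, Mrpl27 0.38, Mrpl17 0.73, Mrpl47 0.067, Mrps31 0.29, Mrps2 0.31, Mrpl10 0.14, Mrps18c 0.44, Mrpl58 0.071, Mrps30 0.12, Mrps12 0.29, Mrpl44 0.43, Mrps22 0.097, Mrpl41 0.20, and for the diet Mrps9 -0.0796. Under nuclear TPM Mrpl45 0.66, Mrpl20 0.59, Mrps26 0.53, Mrpl49 0.48, Mrpl27 0.0322, Mrpl17 0.37, Mrps18c 0.11, Mrpl44 0.086, and for the diet Mrps9 -0.0085. With a pseudocount of 0.1 Mrpl45 was at 0.0005. With the replicate block Mrpl45 0.20, Mrpl20 0.25, Mrps26 0.10. With weights per library Mrpl45 0.22, Mrpl20 0.11, Mrps26 0.11. Without DMD_KD 3, WT_ND 1 and WT_ND 4 Mrpl45 0.27, Mrpl20 0.21, Mrps26 0.13, Mrpl49 0.027. Under nuclear TPM without DMD_KD 3 Mrpl45 0.66, Mrpl20 0.59, Mrps26 0.53, Mrpl49 0.48, Mrpl27 0.0322, Mrpl17 0.37, Mrps18c 0.11, Mrpl44 0.086. Under nuclear TPM without these 3 libraries Mrpl45 0.66, Mrpl20 0.60, Mrps26 0.51, Mrpl49 0.41, Mrpl27 0.19, Mrpl17 0.37, Mrps12 0.041. Without single libraries Mrpl45 ranged from -0.13 to 0.13 and Mrpl20 from -0.16 to 0.078. The reason for the low values of the 2 untested genes was not tested, and no value here separates loss of fibres from loss of mRNA within them.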
